A study of Mus musculus with 30 samples.

Results

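CK666, which blocks the branching of actin filaments by the Arp2/3 complex, opened 180 windows of chromatin in mouse marrow-derived mesenchymal stem cells (MSCs) that were nearly free of reads in every control library. The windows were chosen by their measured values at 24 h, given as CPM, a window's count divided by the library's total and scaled by the same factor in all libraries. A window was taken when it held 0.4 CPM or less in all 3 control libraries and 1.2 CPM or more in all 3 CK666 libraries, which 180 of the 305931 windows of the 24 h table did. Another 6191 windows met the control limit alone and are called the other closed windows below. Because CK666 and control at 24 h set the membership, their difference is given as a description, with no test. The libraries at 4 h took no part in the choice, so the tests below come from them.

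ATAC-seq cuts accessible DNA with a transposase and counts the cuts as sequencing reads, so a window with few reads is wrapped in nucleosomes or otherwise out of reach of the enzyme. Sites of this kind lie mostly far from promoters and are opened when transcription factors bind them, often several together. Factors of the C/EBP and ATF families bind DNA through a basic leucine zipper. C/EBPs drive the conversion of MSCs into adipocytes, and the composite C/EBP-ATF element is best known as the site through which ATF4 acts in the response to amino acid shortage and to stress of the endoplasmic reticulum. In bulk libraries, more cells open at a window and more cuts per cell cannot be told apart.

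The study held MSCs from the bone marrow of C57BL/6J mice, labelled male, left without treatment or treated with CK666 or with cytochalasin D (CytoD), which caps actin filaments, for 24 h. MSCs and NIH 3T3 cells, a fibroblast line first grown from mouse embryos and labelled with the same strain and sex, were also left without treatment or treated with CK666 for 4 h. Each of these 7 groups had 3 libraries, and 9 libraries of siRNA-transfected MSCs were not used here. The study's methods give 50000 cells for MSC libraries, and no number was found for NIH 3T3 cells. The MSCs were a primary line that the study's laboratory made from the marrow of several male mice, so the MSC libraries are not separate animals. It is not stated whether a group's libraries were separate cultures, and the p-values measure the spread between libraries, which may be technical. Window totals ranged from 14071301 to 22352180 counts at 24 h and from 14496058 to 34979833 at 4 h, and the lowest at 4 h was NIH 3T3 CK666 replicate 1. Windows at the transcription start sites (TSSs) of 7 of 10 MSC marker genes were summed in the 9 libraries at 24 h. They held between 223.4 and 238.2 CPM in control, between 212.2 and 216.8 CPM with CK666 and between 200.9 and 216.5 CPM with CytoD. Both treatments thus lay below every control library. Those of blood cell markers, found for 3 of 8 genes, summed to between 4.79 and 8.95 CPM, and those of endothelial markers, found for 2 of 6, to between 2.78 and 5.14 CPM. At 4 h the MSC marker windows held between 205 and 217 CPM in MSCs. In NIH 3T3 cells they held between 230 and 235.5 CPM in control and between 203.4 and 229.8 CPM with CK666, lower than in every control library. They were not lower in NIH 3T3 controls than in MSCs, so they do not mark the MSCs out. The blood cell marker windows at 4 h held between 6.64 and 10.8 CPM in MSCs, between 11.1 and 11.9 CPM in NIH 3T3 controls and between 13.8 and 15.6 CPM in NIH 3T3 cells with CK666, so in NIH 3T3 cells they moved with the treatment. Those of endothelial markers, found for 4 of 6, held between 6.36 and 8.31 CPM in MSCs and between 3.73 and 7.31 CPM in NIH 3T3 cells. The part of such markers in the results at either time was not tested.

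The windows shared a short sequence that the choice of windows did not use. Of 14 motifs searched on both strands in the central 500 bp of each window, the C/EBP-ATF element TGATGCAA was held by 47 of the 180 windows (26.1%), against 4.36% of the other closed windows and 2.06% of all windows. It was also the first of 983 words of 8 bases, ranked by their share in the opened windows over their share in all windows, and TGATGAAA (25% against 2.85%) and TGATGTAA (16.7% against 1.99%) were the second and the fourth. The third word, ATTGCATC, overlaps the C/EBP-ATF element read on the other strand. The pattern TGATGNAA, with any base at position 6, was therefore counted as well, and it was chosen after these words had been seen. It was present in 113 of the 180 windows (62.8%), against 820 of the 6191 other closed windows (13.2%) and 26991 of all windows (8.82%). No test is given for these shares, since the windows and the pattern were picked from the same data.

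To show the pattern in place, 40 bases around the match nearest to the window's centre are given below for the 10 windows with the highest mean CPM with CK666 among those that hold a match other than that near Slc27a6. Positions are on mm10 (GRCm38), the letters are from RefSeq's GRCm38.p6, and each is written 5′ to 3′ on the strand that reads TGATGNAA, which is in capitals.
near Epha7, chr4:28109119-28109158, minus strand: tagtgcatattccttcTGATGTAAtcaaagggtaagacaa
near Nmbr, chr10:15564075-15564114, plus strand: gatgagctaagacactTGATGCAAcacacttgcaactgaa
on the Cd247 exon, chr1:165876201-165876240, plus strand: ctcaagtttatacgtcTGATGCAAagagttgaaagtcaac
near D3Ertd751e, chr3:42613276-42613315, minus strand: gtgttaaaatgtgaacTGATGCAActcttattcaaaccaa
in Gm29394, chr15:58050307-58050346, plus strand: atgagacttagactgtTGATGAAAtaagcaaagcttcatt
near Ell2, chr13:75779393-75779432, plus strand: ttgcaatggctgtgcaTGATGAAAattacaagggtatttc
in Cstf3, chr2:104614251-104614290, minus strand: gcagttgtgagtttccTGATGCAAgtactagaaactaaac
near Usp25, chr16:76796658-76796697, minus strand: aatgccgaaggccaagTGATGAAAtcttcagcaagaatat
near Mtnr1b, chr9:15802798-15802837, minus strand: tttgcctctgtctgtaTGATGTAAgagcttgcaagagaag
in Arhgef3, chr14:27312590-27312629, minus strand: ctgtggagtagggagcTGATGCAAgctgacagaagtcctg
Of these 10, the matches near Epha7, Ell2, Cstf3 and Usp25 lay within 6 bp of the window's centre, and the match near Nmbr lay 204 bp from it. The window listed for the Cd247 exon lies within that gene and touched a coding exon. Whether the exon is that gene's, and whether the match itself lies on it, was not checked.

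Not every strongly opened window held the pattern. The central 160 bases of the 3 windows with the highest CK666 level other than that near Slc27a6 follow on the plus strand, with TGATGNAA or its reverse complement in capitals, to set 1 window with the pattern beside 2 without it.
in Tm9sf2, chr14:122116319-122116478: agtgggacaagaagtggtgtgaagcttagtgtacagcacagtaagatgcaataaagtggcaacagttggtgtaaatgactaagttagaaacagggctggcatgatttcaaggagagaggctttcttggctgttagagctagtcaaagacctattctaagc
near Epha7, chr4:28109063-28109222: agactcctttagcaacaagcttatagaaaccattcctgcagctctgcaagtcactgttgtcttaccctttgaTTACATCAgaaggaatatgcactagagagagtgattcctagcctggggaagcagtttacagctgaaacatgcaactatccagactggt
near Plscr5, chr9:92139732-92139891: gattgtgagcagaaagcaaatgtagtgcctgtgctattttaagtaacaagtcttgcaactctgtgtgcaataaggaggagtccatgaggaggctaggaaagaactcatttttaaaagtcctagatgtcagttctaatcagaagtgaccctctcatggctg
The windows in Tm9sf2 and near Plscr5 had no match anywhere in their central 500 bp.

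The matches sat near the middle of the windows. In the 113 opened windows that held TGATGNAA, the nearest match lay a median of 31 bp from the centre, and 100 of them (88.5%) had one within 70 bp. The medians were 60 bp in the other closed windows that held the pattern and 106 bp over all windows, with 54.4% and 35.5% within 70 bp. In all, 132 matches were found, and 17 windows (9.44%) held at least 2, against 0.468% of all windows. For comparison at like base composition, among the 92086 windows with a GC content within the quartiles of the opened windows (38.2% to 44.2%), 11.2% held TGATGNAA.

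**Figure D1:**
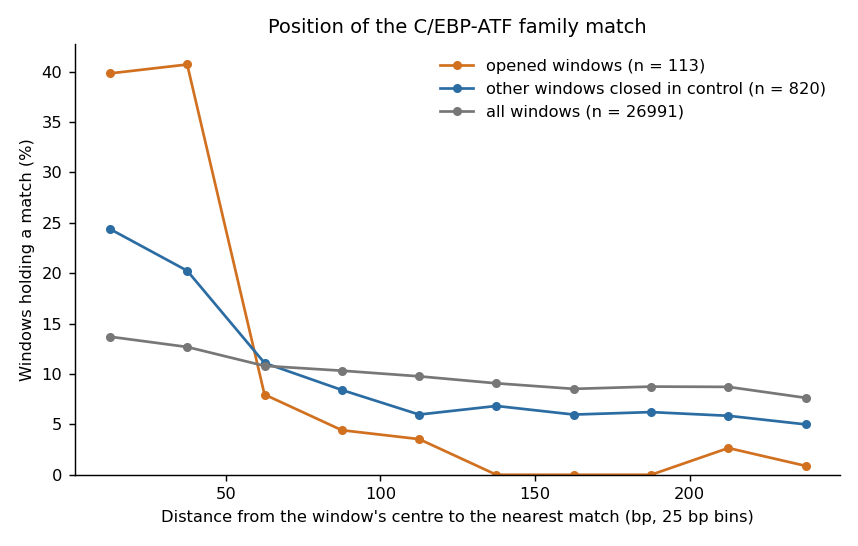
Distance in bp from the window's centre to the nearest TGATGNAA match, in bins of 25 bp, as a percentage of the windows that hold a match, for the opened windows (n = 113), the other closed windows (n = 820) and all windows (n = 26991). In the opened windows 39.8% of the nearest matches fell within the first bin and 40.7% within the second, while the line for all windows falls slowly with distance.

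None of the other 13 motifs had a share as far above that of the other windows as the C/EBP-ATF element. AP-1 (TGANTCA), bound by FOS and JUN proteins, was held by 18.9% of the opened windows, 16.8% of the other closed windows and 27% of all windows. The TEAD motif (GGAATG), through which YAP acts, was held by 26.1%, 25.3% and 29.2%, and the CArG box (CATATTAGG) of serum response factor, whose partner MRTF is held back by free actin, by 0.556% (1 window), 0.145% and 0.204%. The C/EBP palindrome TTGCGCAA was in 0 of the 180 windows and in 0.119% of all windows. Both CATATTAGG and TTGCGCAA were searched as 1 fixed word and were rare in all windows, so their shares say little about sites spelled otherwise. The short homeodomain core TAATTA, rich in A and T, was held by 17.2%, 12.6% and 10.3%, above both other sets. In the central 300 bp the shares were 6.11%, 6.36% and 5.39%, so it was no longer above the other closed windows. The CTCF motif (AGGGGGC), which marks loop anchors, was held by 3.33%, 5.27% and 7.28%. The shares of NFI (TTGGCA), RUNX (TGTGGTT), ARE (TGACNNNGC), GRE (ACANNNTGT), E-box (CACGTG), FOX (TGTTTAC) and XRE core (TNGCGTG) ranged from 1.67% to 26.7% in the opened windows and from 4.46% to 26.7% in all windows. A match says that these letters are present and not that a factor was bound.

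**Figure D2:**
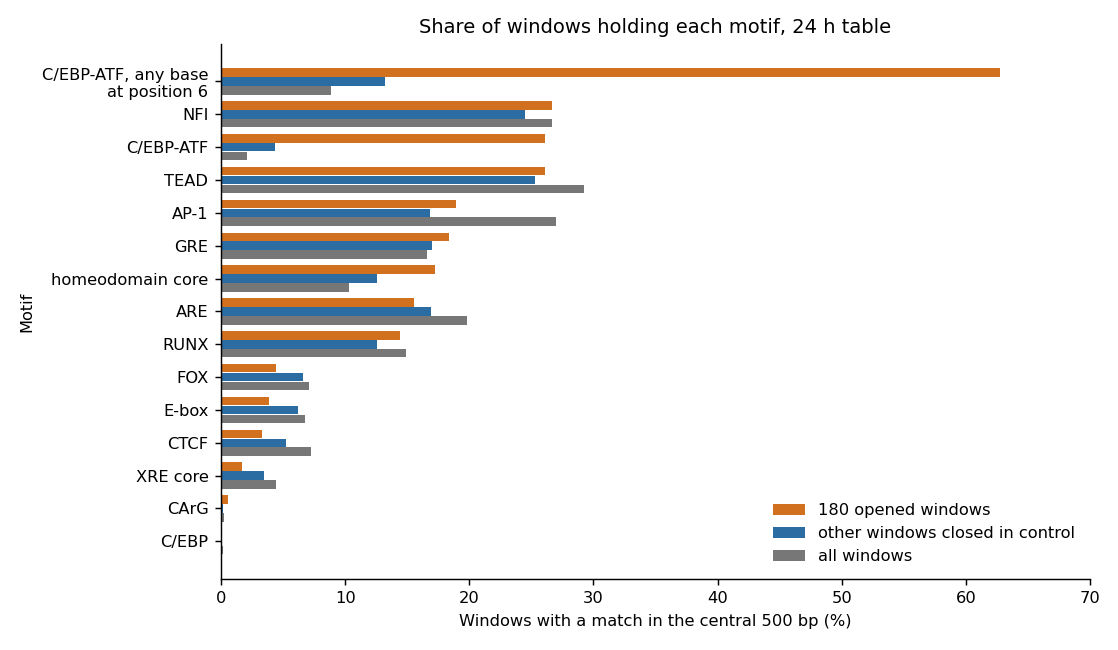
Percentage of windows with at least 1 match in the central 500 bp for each motif, in the 180 opened windows, the 6191 other closed windows and all 305931 windows of the 24 h table. The C/EBP-ATF element (26.1% against 2.06% of all windows) and the same element with any base at position 6 (62.8% against 8.82%) rise farthest above all windows in percentage points, followed by TAATTA (17.2% against 10.3%). In the central 300 bp, not drawn here, TAATTA was held by 6.11% of the opened windows and 5.39% of all windows.

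The opened windows were small and lay away from promoters. Their length ranged from 502 to 888 bp with a median of 532 bp, against 563 bp in the other closed windows and 651 bp over all windows, and their median GC content was 40.5%, against 44.8% in the other closed windows and 45.9% over all windows. Of the 180 windows, 85 (47.2%) were intergenic, 78 (43.3%) intronic, 13 (7.22%) touched a coding exon, 4 (2.22%) touched a UTR or non-coding exon, and 0 contained a TSS. Of the other closed windows 44.4% were intergenic and 0.937% contained a TSS, and over all windows 37.7% and 6.29%. The nearest protein-coding TSS was a median of 55629 bp away, against 37108 bp for the other closed windows and 23736 bp over all windows. Repeats did not take a larger part of them, as a median of 14.7% of their bases was soft-masked, against 14.5% over all windows.

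The windows were scattered over the genome. Each of 20 chromosomes held between 5 and 17 of them, with the most on chromosome 9, and only 2 pairs lay within 50 kb of each other. The nearest window with 1.2 CPM or more in all 3 control libraries was a median of 7994 bp away, and 18 windows had one within 1 kb. For 87 windows a protein-coding TSS lay within 50 kb, which named 86 genes, and only Me1, malic enzyme, which makes NADPH for fatty acid synthesis, was named by 2 windows. None of the 11 gene lists held a gene whose TSS was the nearest to an opened window and within 50 kb of it: adipogenic genes (15), osteogenic genes (13), targets of the aryl hydrocarbon receptor (10), YAP and TEAD targets (11), SRF and MRTF targets (12), the AP-1 family (10), Arp2/3 subunits (10), stress and unfolded protein response genes (12), and markers of MSCs (10), blood cells (8) and endothelium (6). The same lists had between 62 and 413 of the 305931 windows of the 24 h table within that distance. These shares are so small that few or no opened windows would be met near such genes in any case. The absence therefore says little about these lists.

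At 24 h the opened windows held few reads without CK666. The median over the 180 windows was 0.212, 0.224 and 0.208 CPM in the control libraries, or 3 to 5 counts per window, and 1.91, 1.93 and 1.996 CPM in the CK666 libraries, or 39 to 41 counts. The limit of 0.4 CPM corresponds to between 5.65 and 8.94 counts in the control libraries, so the control level of a single window is known only within its counting error. Group means with CK666 ran from 1.26 to 8.26 CPM and exceeded the control means by between 4.65 and 74.6 times, with a median ratio of 10.01. Since the limits set this gap, it is no result.

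**Figure D3:**
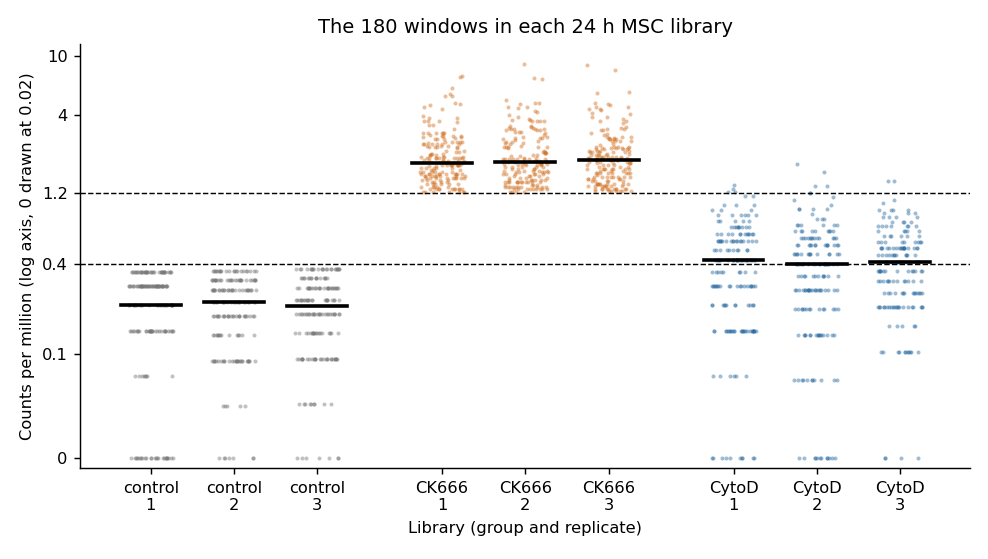
CPM (log axis, values of 0 drawn at 0.02) of the 180 windows in each of the 9 libraries at 24 h, with 1 point per window and a black bar at the median of each library. The dashed lines are the limits of 0.4 and 1.2 CPM that chose the windows from the control and CK666 libraries, and the CytoD libraries, which chose nothing, have medians of 0.426, 0.4 and 0.411 CPM.

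The most open window lay in an intron of Tm9sf2, a membrane protein of the endosome and Golgi, at chr14:122116138-122116659. It held 0.283, 0.268 and 0.185 CPM in the control libraries and 7.30, 8.84 and 8.65 CPM with CK666. With CytoD it held 0.711, 0.534 and 0.617 CPM, above every control library and far under every CK666 library. The second, an intergenic window 35427 bp from the TSS of Slc27a6, a fatty acid transport protein, at chr18:58520289-58520830, held 0.354, 0.179 and 0 CPM in control and 7.25, 7.06 and 8.09 CPM with CK666. The third, at chr4:28108891-28109395, lay 703736 bp from the nearest protein-coding TSS, that of Epha7, an ephrin receptor, and held 0.0708, 0.358 and 0.277 CPM in control and 6.07, 6.96 and 5.63 CPM with CK666. All 3 had a spread between CK666 libraries that was small beside the distance to the controls.

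The next 7 windows by CK666 level had means between 4.21 and 5.34 CPM. They were an intergenic window near Plscr5 (chr9:92139553-92140070, 5.34 ± 0.519 CPM, SD, n = 3), 1 near Nmbr (chr10:15564037-15564560, 4.79 ± 0.552), and 1 within Cd247 that touched a coding exon (chr1:165875917-165876436, 4.64 ± 0.612), 3724 bp from the TSS of Pou2f1, which encodes the factor OCT1. The others lay near D3Ertd751e (chr3:42613000-42613539, 4.63 ± 0.517), in an intron of Abcc12 (chr8:86484154-86484681, 4.35 ± 0.333), in an intron of the non-coding gene Gm29394 (chr15:58049978-58050486, 4.26 ± 0.557), and 32773 bp from the TSS of Ell2, a transcription elongation factor (chr13:75779124-75779713, 4.21 ± 0.825). Of these 10, 3 had their nearest protein-coding TSS between 703736 and 861804 bp away.

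The limits fell within a continuous range of values. Just inside them, the windows near Abcd3, Thsd7a and Ltbp1 each had a lowest CK666 value of 1.22 CPM and a highest control value of 0.212, 0.277 and 0.283 CPM. Just outside, the windows near Lrrc19, Dok2 and 4930550C14Rik were left out because 1 control library held 0.403 CPM, and their lowest CK666 values were 1.33, 2.25 and 1.59 CPM.

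CytoD, which also acts on actin, left most of the windows at a low level. The median over windows of the CytoD mean was 0.380 CPM, with library medians of 0.426, 0.4 and 0.411, and in 178 of the 180 windows every CytoD library was under every CK666 library. All 3 CytoD libraries stayed at 0.4 CPM or less in 23 windows (12.8%), and all 3 reached 1.2 CPM in 1 (0.556%). In the other closed windows the median CytoD mean was 0.663 CPM, higher than in the opened windows, with 5.6% at 0.4 CPM or less and 0.145% at 1.2 CPM or more in all 3. Every CytoD library exceeded every control library in 56 opened windows (31.1%), in 51.8% of the other closed windows and in 15.7% of all windows. A window is in the 24 h table only where a peak was called in some library, which for the other closed windows may have been a CytoD library. The control and CK666 libraries beside which CytoD is set chose the windows, and a high level with CK666 was required of them, so no test is given and these counts and shares are a description.

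The window with the highest CytoD level was intergenic, 587606 bp from the TSS of Clint1, at chr11:45263774-45264445. It held 1.21, 1.67 and 1.44 CPM with CytoD, 2.20, 1.60 and 1.38 CPM with CK666 and 0.212, 0.179 and 0.369 CPM in control, so that CytoD and CK666 overlapped. The next was in an intron of Rb1, the retinoblastoma tumour suppressor, at chr14:73226756-73227285, with 0.782, 1.87 and 0.925 CPM. A window on a UTR or non-coding exon of Ddx51, an RNA helicase, at chr5:110660288-110660809, held 0.853, 1.2 and 1.44 CPM, and 1 in an intron of Klb, the co-receptor for the hormone FGF21, at chr5:65350685-65351267, held 0.711, 1.07 and 1.08 CPM. These 4 means were between 0.953 and 1.44 CPM.

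The question at 4 h was whether the windows had begun to open sooner after CK666, and whether they opened in another cell type. The 4 h table was built from its own peaks, and 121 of the 180 windows overlapped a window of it by at least 1 bp (67.2%), 1 of them 2 windows, against 1332 of the 6191 other closed windows (21.5%). The remaining 59 could not be followed. A window is in that table only where a peak was called in some 4 h library, which may have been a CK666 library. In MSCs the median over the 121 windows of the control mean was 0.259 CPM and that of the CK666 mean 0.591 CPM. The medians in NIH 3T3 cells were 0.326 and 1.08 CPM. Every CK666 library lay above every control library in 72 of the 121 windows in MSCs (59.5%, against 11.6% of all windows) and in 92 in NIH 3T3 cells (76%, against 18.6%).

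**Figure D4:**
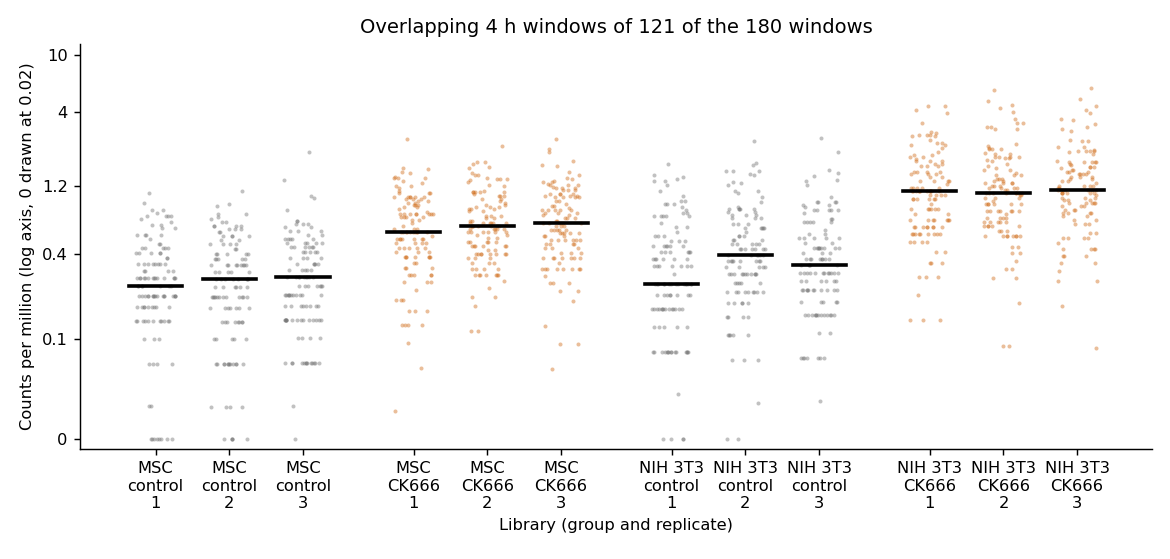
CPM (log axis, values of 0 drawn at 0.02) of the 4 h windows that overlap 121 of the 180 windows, in each of the 12 libraries at 4 h, with 1 point per window and a black bar at the median of each library. Library medians were between 0.236 and 0.274 CPM in MSC controls, 0.569 and 0.655 CPM in MSCs with CK666, 0.246 and 0.395 CPM in NIH 3T3 controls and 1.08 and 1.12 CPM in NIH 3T3 cells with CK666.

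In MSCs, 26 of the 180 windows rose within 4 h of CK666 and 0 fell, by edgeR's quasi-likelihood test on all 306819 windows that passed the filter on low counts, with a call at adjusted p values under 0.01 and changes beyond 1 on the log2 scale. Over all windows tested, 0.59% were called higher and 0.427% lower. The filter kept 94 of the 121 windows, and a window could pass it through its CK666 libraries alone. When no filter was applied, the log2 fold change was above 0 in 117 of 121 windows, with a median of 1.15, against 60.0% and 0.15 in the other closed windows and 50.04% and 0.00044 over all windows. With DESeq2 in place of edgeR 5 of these 26 windows were called, and for the other 21 DESeq2's own filter on low counts left no adjusted p. With single libraries left out the count was between 15 and 24, and it was 15 without CK666 replicate 2, 17 without CK666 replicate 1 and 17 without control replicate 2.

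In NIH 3T3 cells, 53 of the 180 windows rose and 0 fell, of 106 that passed the filter. Over all windows tested in these cells, 1.87% were called higher and 1.67% lower. Without the filter 116 of the 121 windows had a log2 fold change above 0, with a median of 1.46, against 65.9% and 0.29 in the other closed windows. The split of calls over all windows depended on the scaling, with 6216 higher and 5549 lower by TMM, 8022 and 3514 by total counts, and 4961 and 7727 once a GC trend was removed. DESeq2 called 3174 higher and 4827 lower, and it called 34 of the 53 opened windows. The study's text gives 4827 as the number of regions with increased accessibility in these cells, which is the opposite direction. Directions here are CK666 against control as the libraries are labelled, and the cause of the disagreement was not tested. Of the opened windows 57 rose by total counts and 50 with the GC trend removed, and 0 fell. The count with single libraries left out was between 29 and 44, with 29 without CK666 replicate 3 and 33, 34 and 35 without control replicates 3, 1 and 2. In both cell types together, 64 of the 180 windows rose in at least 1, 15 in both, 11 in MSCs and not in NIH 3T3 cells, and 38 in NIH 3T3 cells and not in MSCs, which does not show a difference between the cell types.

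The window that rose most in MSCs touched a coding exon of Capn8, a calpain protease, at chr1:182604997-182605525. At 4 h it held 0.169, 0.200 and 0.0684 CPM in MSC controls and 1.36, 1.37 and 2.18 CPM with CK666, with a log2 fold change of 3.42 (SE 0.40, adjusted p = 2.16e-10). The NIH 3T3 libraries went from 0.123, 0.323 and 0.406 CPM to 2.07, 3.00 and 2.12 CPM, a log2 fold change of 2.95 (SE 0.38, adjusted p = 1.34e-08). The groups did not overlap in either cell type.

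A window in an intron of Phf20l1, a reader of methylated lysine, at chr15:66605203-66605707, was second in MSCs and first in NIH 3T3 cells. It held 0.203, 0.0333 and 0.239 CPM in MSC controls and 0.980, 1.32 and 2.09 CPM with CK666 (log2 fold change 3.15, SE 0.42, adjusted p = 1.47e-08). In NIH 3T3 cells it held 0.0821, 0.287 and 0.222 CPM in control and 2.41, 3.32 and 2.16 CPM with CK666 (3.59, SE 0.39, adjusted p = 1.13e-10). At 24 h its mean with CK666 had been 2.13 CPM, below the level in NIH 3T3 cells at 4 h, on the scale of each library's own total.

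A window in an intron of Arhgef3, an exchange factor that activates RhoA and so acts on actin itself, at chr14:27312330-27312845, rose in both cell types. It held 0.135, 0.0666 and 0.205 CPM in MSC controls and 0.885, 0.858 and 1.34 CPM with CK666 (log2 fold change 2.86, SE 0.46, adjusted p = 3.12e-06). Its log2 fold change in NIH 3T3 cells was 3.13 (SE 0.56, adjusted p = 3.11e-05). The window within Cd247 rose by 2.82 in MSCs (SE 0.49, adjusted p = 1.56e-05) and by 2.11 in NIH 3T3 cells (SE 0.37, adjusted p = 1.59e-05). DESeq2 gave log2 fold changes of 3.18, 2.90 and 2.86 in MSCs for the windows in Phf20l1, in Arhgef3 and on Cd247, with no adjusted p.

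Of the windows with the highest CK666 level at 24 h, that in Tm9sf2 rose at 4 h from 0.236, 0.766 and 0.479 CPM to 2.56, 2.29 and 2.59 CPM in MSCs (log2 fold change 2.29, SE 0.28, adjusted p = 1.74e-09). It also rose in NIH 3T3 cells, from 0.205, 0.538 and 0.259 CPM to 1.79, 1.93 and 2.25 CPM (2.45, SE 0.38, adjusted p = 1.97e-06). The windows near Epha7 and in Abcc12 also rose in both, with log2 fold changes of 2.18 and 2.15 in MSCs and 2.78 and 2.68 in NIH 3T3 cells, as did those near Slc27a6 (1.29 and 1.90) and Ell2 (1.58 and 3.12). The MSC call near Slc27a6, at an adjusted p of 0.00988, was lost with no filter (adjusted p = 0.0142), with a GC trend removed (adjusted p = 0.0114) and without any single MSC library other than control replicate 3. The MSC call near Ell2 was lost without CK666 replicate 1 or 2 (1.51 and 1.55) and without control replicate 1 or 2 (1.40 and 1.39), and its NIH 3T3 call without CK666 replicate 3 (2.76). The NIH 3T3 call near Epha7 was lost without CK666 replicate 3 (adjusted p = 0.011) and without control replicate 1 or 2 (2.24 and 2.63). The window near D3Ertd751e, with 1.77 in MSCs, missed the threshold at an adjusted p of 0.0101, and those near Plscr5, near Nmbr and in Gm29394 had no window at 4 h.

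A pair of windows was among the 6 strongest in MSCs and too low in NIH 3T3 cells for the filter. The window 216764 bp from the TSS of Usp25, a deubiquitinase, at chr16:76796409-76796942, held 0.236, 0.0666 and 0.239 CPM in MSC controls and 1.01, 1.09 and 1.15 CPM with CK666 (log2 fold change 2.54, SE 0.43, adjusted p = 7.74e-06). Its NIH 3T3 libraries held 0.246, 0.538 and 0.406 CPM in control and 0.276, 0.269 and 0.518 CPM with CK666, so that the groups overlapped. The difference between the cell types was 2.80 on the log2 scale (SE 0.73) with an adjusted p of 0.0114, which missed the threshold, and it was called with no filter (2.84, adjusted p = 0.00975), without NIH 3T3 CK666 replicate 3 (3.24) and without NIH 3T3 control replicate 1 (3.02). The window at chr9:85830200-85830719, 11661 bp from the TSS of Tpbg, the trophoblast glycoprotein, rose in MSCs with a log2 fold change of 2.33 (SE 0.40, adjusted p = 1.3e-05). Its NIH 3T3 libraries held 0.0821, 0.179 and 0.296 CPM in control and 0.276, 0.404 and 0.173 CPM with CK666. For this window the difference between the cell types was 1.87 (SE 0.82, adjusted p = 0.199 by the interaction test) and was not called.

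In NIH 3T3 cells the window 41278 bp from the TSS of Fnbp1l, which promotes Arp2/3-dependent actin assembly at membranes, at chr3:122660993-122661509, went from 0.123, 0.538 and 0.148 CPM to 3.93, 3.59 and 3.28 CPM (log2 fold change 3.58, SE 0.34, adjusted p = 1.18e-12). In MSCs it went from 0, 0.200 and 0.274 CPM to 0.506, 0.457 and 0.811 CPM (1.85, SE 0.57, adjusted p = 0.0285), where the groups did not overlap and the threshold was missed. The windows near Sptlc1, a subunit of the enzyme that starts sphingolipid synthesis, on an exon of the non-coding gene Gm2762 (chr13:53404738-53405250), and near Ift81, of the cilium's transport machinery (chr5:122625885-122626406), rose in NIH 3T3 cells by 3.25 and 3.17 on the log2 scale (SE 0.67 and 0.58, adjusted p = 0.000312 and 4.59e-05). The first held 0, 0.179 and 0.0739 CPM in control and 0.483, 1.12 and 1.12 CPM with CK666, and it lost the call without CK666 replicate 3 (3.09).

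The CK666 effect was tested between the cell types in a fit of all 12 libraries, which kept 120 of the 121 windows. It was larger in MSCs in 0 of the opened windows, where 0.905% of all windows tested were called, and larger in NIH 3T3 cells in 1, where 0.498% were called. That was the window on Ddx51, which in MSCs held 0.675, 0.766 and 0.650 CPM in control and 1.2, 0.600 and 1.03 CPM with CK666, with overlapping groups (log2 fold change 0.40, SE 0.33, adjusted p = 0.562). The NIH 3T3 libraries rose from 1.03, 1.26 and 0.665 CPM to 4.41, 5.65 and 5.92 CPM (2.35, SE 0.23, adjusted p = 5.43e-12). The difference was -1.92 for MSCs minus NIH 3T3 cells (SE 0.41, adjusted p = 0.00126), and it lost the call without MSC CK666 replicate 2 (-1.67).

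**Figure D5:**
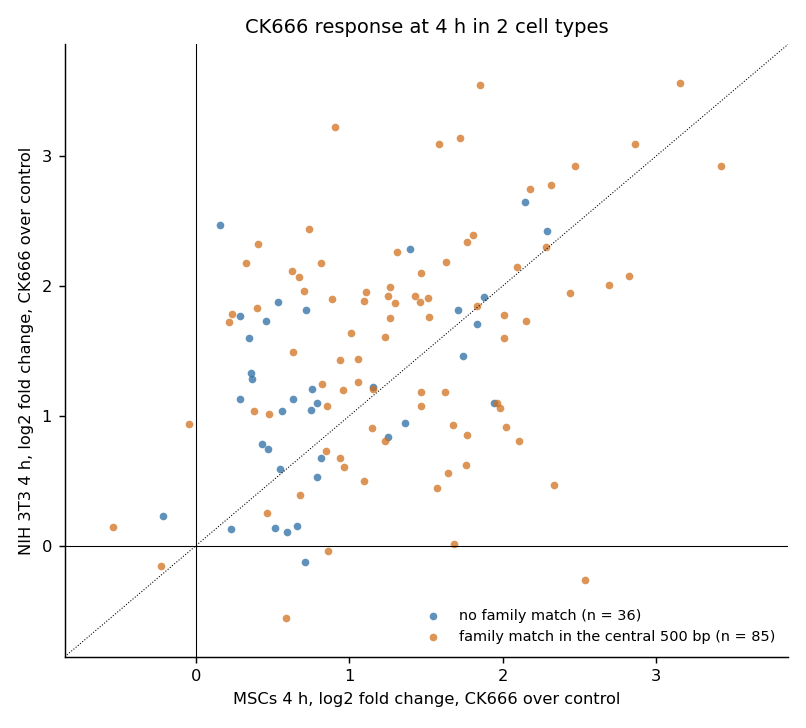
Log2 fold change of CK666 over control at 4 h in MSCs (horizontal axis) and NIH 3T3 cells (vertical axis), from the fits with no filter on low counts, for the 121 windows with a 4 h window, coloured by whether they hold TGATGNAA (n = 85) or not (n = 36). Most points lie in the upper right, with 117 above 0 in MSCs and 116 in NIH 3T3 cells, and the dotted line marks equal change.

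The windows were also compared between the untreated cell types, where their counts were low. Of the 121 with a 4 h window, 120 were tested. NIH 3T3 control was higher than MSC control at 4 h in 14 (11.6% of the 121) and lower in 3 (2.48%). Among the other closed windows with a 4 h window, 23.4% were called higher in NIH 3T3 cells and 2.63% higher in MSCs. Over all windows tested, 16.2% were called higher in NIH 3T3 cells and 18.3% higher in MSCs. At 4 h all 3 control libraries were at 0.4 CPM or less in 66 of the 121 windows in MSCs and in 45 in NIH 3T3 cells. The limits that chose the windows at 24 h were met by 2 windows in MSCs and by 4 in NIH 3T3 cells at 4 h.

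The windows that held TGATGNAA had larger median fold changes at 4 h. Their median log2 fold change without a filter was 1.30 in MSCs and 1.73 in NIH 3T3 cells over 85 windows, against 0.69 and 1.13 over the 36 windows without it. Their median level with CK666 was 0.583 CPM in MSCs and 1.19 CPM in NIH 3T3 cells, against 0.646 and 1.07 CPM without the pattern, and their control medians of 0.225 and 0.308 CPM were below the 0.31 and 0.382 CPM of the windows without it. Of the 113 windows with the pattern, 22 (19.5%) rose in MSCs and 44 (38.9%) in NIH 3T3 cells, and of the 67 without it 4 (5.97%) and 9 (13.4%). A larger part of the windows with the pattern had a 4 h window to test (85 of 113 against 36 of 67), and no test was made of the difference between the 2 kinds of window. At 24 h the medians of the CK666 mean were 2.04 and 1.73 CPM, those of the control mean 0.222 and 0.223 CPM, and those of the CytoD mean 0.383 and 0.374 CPM, so the control and CytoD medians lay close together.

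The pattern was also common in windows that gained accessibility at 4 h and are not among the 180. With windows that overlap an opened window left out, TGATGNAA was held by 570 of 1784 windows called higher with CK666 in MSCs (32.0%), by 92 of 1310 called lower (7.02%) and by 9.06% of all windows tested. Among NIH 3T3 windows it was held by 1675 of 6163 called higher (27.2%), by 388 of 5549 called lower (6.99%) and by 9.06% of all tested. The counts at 4 h entered neither the limits at 24 h nor the ranking of words, but the motifs were chosen with earlier results of both times known, and the shares are given without a test.

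Among windows close to genes, 13 had a protein-coding TSS within 5 kb. A pair of these, named here after their values were seen, lay 486 bp apart in an intron of Me1, 938 and 2007 bp from its TSS. The farther one, at chr9:86689284-86690126, held 0.142, 0.313 and 0.231 CPM in control and 3.23, 3.62 and 4.56 CPM with CK666 at 24 h, and rose at 4 h in MSCs from 0.439, 0.633 and 0.410 CPM to 1.49, 1.77 and 1.81 CPM (log2 fold change 1.74, SE 0.30, adjusted p = 1.39e-05). The nearer one had a log2 fold change of 0.52 in MSCs at 4 h (SE 0.37, adjusted p = 0.485). Neither held TGATGNAA. Another, also named after its values were seen, lay in an intron of Runx2, the factor that sets osteoblast fate, at chr17:44498242-44498791 and 235902 bp from the nearest TSS. It held 0.0338, 0.233 and 0.0684 CPM in MSC controls at 4 h and 0.537, 0.4 and 0.780 CPM with CK666 (log2 fold change 2.28, SE 0.61, adjusted p = 0.00820), and 2.33 in NIH 3T3 cells (SE 0.61, adjusted p = 0.00517). The MSC call was lost without any single MSC library other than control replicate 2, and the NIH 3T3 call with DESeq2 (adjusted p = 0.0159) and without any single NIH 3T3 library other than control replicate 2.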

How the data were processed

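ATAC-seq libraries had been prepared with the Omni-ATAC protocol. The authors ran PEPATAC with bowtie2 and MACS2, took the union of peaks across replicates, and deposited the read counts per window and library as 2 tables without normalization. The build, mm10, is from the submitters' processing notes. Transposase shift, read filters and peak merging are already in the counts, their settings were not found in the sources used here, and a window exists only where a peak was called. Names of windows in the tables begin at a 0-based start, and printed positions are 1-based. The 9 siRNA libraries were not used, and 0 columns lacked a sample.

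CPM was taken from column totals. The opened windows, gene lists, motifs and tests were chosen with earlier results of these data known. Windows were annotated with GENCODE vM21 and RefSeq's GRCm38.p6, and a gene was assigned by its nearest protein-coding TSS. The gene named for an exon or intron is one whose body covers the window, and the exon's own gene was not kept. The 24 h and 4 h windows were matched by an overlap of at least 1 bp. At 4 h the 6 MSC and the 6 NIH 3T3 libraries were fitted separately, and all 12 together for the interaction and for the comparison of controls, with edgeR's quasi-likelihood test, its default filter on low counts, TMM normalization and Benjamini-Hochberg adjustment over all windows. A call needed an adjusted p below 0.01 together with a change beyond 1 on the log2 scale. The script was tested on simulated counts, in which only windows above a floor of mean counts were changed. That simulation does not cover changes in windows with fewer reads. Matches were counted on both strands, and overlapping ones separately. Intervals were not computed for single windows, and a count of 0 allows up to 3 counts, which is between 0.134 and 0.213 CPM in the libraries at 24 h.

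Named windows were the 10 with the highest CK666 mean, the 6 with the largest log2 fold change among those called in each cell type at 4 h, those called between cell types (at most 4), the 4 with the highest CytoD mean, and 3 on each side of the limits. Replicate numbers did not pair the 4 h libraries, since no same-numbered pair's deviations from the group means correlated above 0.1 (r from -0.056 to 0.02). Analyses used R 4.3.3, edgeR 4.0.16, DESeq2 1.42.0, limma 3.58.1, Python 3.11.15, numpy 2.4.6, pandas 2.3.3, scipy 1.17.1 and matplotlib 3.10.9. The alternatives were other limits, TMM library sizes, leaving out each library, DESeq2, total counts, no filter, a replicate block, removal of a GC trend, an overlap of at least 50% of both windows, a TSS within 5 kb and the central 300 bp for motifs.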

Additional observations from a re-analysis of the deposited data

Results flagged for a closer look

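The window on Ddx51 at chr5:110660288-110660809 was singled out because its response to CK666 at 4 h differed between the cell types by the interaction test, with a difference of -1.92 on the log2 scale for MSCs minus NIH 3T3 cells (SE 0.41, edgeR adjusted p = 0.00126). It was higher with CK666 than in every control library in 3 of 3 NIH 3T3 libraries and in 2 of 3 MSC libraries. At 24 h the same window held 2.74, 3.72 and 2.66 CPM with CK666 in MSCs, and with CytoD it was among the 4 highest of the 180 windows. Groups of 3 libraries are too small for a check of single outlying libraries.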

How the results depend on the processing

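The number of windows that met the limits was 180, 44 at limits of 0.3 and 1.5 CPM, 580 at 0.5 and 1.0 CPM, 183 with TMM library sizes, and between 216 and 359 with 1 control or CK666 library left out of the rule, the most without control replicate 1 (359) and control replicate 2 (309). TGATGNAA was held by 61.4% of the 44 and 51.4% of the 580 windows. The median CytoD level of 0.380 CPM was 0.364 with TMM library sizes and between 0.379 and 0.396 with single CytoD libraries left out. For CK666 in MSCs at 4 h, the 26 windows called higher became 5 with DESeq2 (which gave 21 of the 26 no adjusted p), 9 and 65 at the stricter and looser limits, and between 15 and 24 with single libraries left out. In NIH 3T3 cells the 53 became 34 with DESeq2, 17 and 107 at those limits, and between 29 and 44 with single libraries left out, and 1 was called lower at the looser limits. Over all windows DESeq2 called 1098 higher and 864 lower in MSCs, against 1810 and 1310 with edgeR, and 3174 and 4827 in NIH 3T3 cells, against 6216 and 5549, so there the larger number turned from higher to lower. Apart from the missing adjusted p values, the cause of these differences was not tested. Between the cell types, calls larger in MSCs were 1 with no filter (an alternative added after the data were seen), the window near Usp25, and between 0 and 1 with single libraries left out, and calls larger in NIH 3T3 cells were between 0 and 1. The 14 windows higher in NIH 3T3 control than in MSC control were between 10 and 17, and the 3 lower were between 2 and 4, with single control libraries left out.

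With the replicate number as a block, which does not pair these libraries, 28 windows rose in MSCs and 49 in NIH 3T3 cells. In the comparison of the untreated cell types, a block added after the data were seen gave counts of 6 and 0. With that block, the contrast set the baseline replicate of each cell type side by side and not the group means. Its counts are therefore no check on the comparison of group means. A TSS within 5 kb was found for 13 windows, against 87 within 50 kb. In the central 300 bp, where a share cannot exceed that in 500 bp, it was 17.2% for NFI, 5% for RUNX, 12.2% for GRE and 6.11% for TAATTA. Over all windows these shares were 17.7%, 10.3%, 10.4% and 5.39%. Control levels of 3 to 5 counts per window limit what can be said of any single window at 24 h.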
